A study of Mus musculus with 2 samples.

Results

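The nuclear genes of respiratory complexes II, III and IV were described in the heart of adult mice, together with cytochrome c and the assembly factors of complex II. Members were chosen by symbol: those beginning with Sdha, Sdhb, Sdhc, Sdhd or Uqcr, the Cox genes of subunits 4 to 8, Cyc1 and Cycs. The rule found 37 genes of 55536 annotated ones, and used no measured value. They comprise 4 subunits of complex II, 4 complex II assembly factors, 9 subunits of complex III, cytochrome c, and 19 genes of complex IV. Of these, 35 had at least 20 reads over both libraries. The other two, Cox7b2 and Cox8c, held 1 read and 0 reads in all. One found by its symbol, Cox6c2, is annotated as a processed pseudogene. Symbols ending in -ps were left out by the rule, and the 4 such entries held at most 1.57 reads per library.

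Total RNA was sequenced from heart tissue of 2 female B6CASTF1/J mice, first-generation hybrids of C57BL/6 and CAST parents, aged 2 months. Both belong to 1 group (n = 2) and have 1 library each. Libraries started from 300 ng of RNA, were depleted of ribosomal RNA and carry ERCC spike-ins. The labels number the libraries as separate biological replicates but give both the same donor code, and differences between them may be technical. The values do not separate the parental alleles. With 1 group, the data give levels, the balance between paralogs, and differences between the animals.

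Gene reads came to 41862417 in animal 1 and 41790009 in animal 2. Levels are in TPM, a relative abundance of transcripts corrected for transcript length, from the authors' gene table unless the second quantification is named, which is another deposited set of values for the same libraries. Nuclear protein-coding genes with at least 20 reads had a summed level of 383347 TPM in animal 1 against 450938 TPM in animal 2, and the SDs include this shift of scale. All 7 cardiomyocyte markers were high, from 371 TPM for Ryr2 to 7986 TPM for Myh6, and the 9 skeletal muscle markers held 126 and 86 reads in sum. In whole tissue, fewer cells of a type and less RNA per cell cannot be told apart.

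Complex II, succinate dehydrogenase, oxidises succinate and passes electrons to ubiquinone. Complex III takes them from ubiquinol to cytochrome c, a small soluble carrier, and complex IV, cytochrome c oxidase, passes them to oxygen while pumping protons. The catalytic subunits of complex IV and cytochrome b of complex III are encoded by the mitochondrial genome, and the surrounding subunits by nuclear genes. Some of those occur as paralogs: Cox6a2, Cox7a1 and Cox8b are the forms known from heart and skeletal muscle, and Cox6a1, Cox7a2 and Cox8a their ubiquitous counterparts.

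Promoters of the paralogs are shown because the pairs are the main comparison among these genes. The 5 entries found in the RefSeq table (GRCm38.p6) among the 6 paralogs are the 250 bases before the annotated start, read 5′ to 3′ on the gene's strand. Capitals mark matches to the motif letters of NRF1 (GCGCATGCG), GABP (CCGGAAG) or Sp1 (GGGCGG) on either strand. Cox6a1 lies on the minus strand at chr5:115348959-115349208, Cox7a1 on the plus strand at chr7:30183921-30184170, Cox7a2 on the minus strand at chr9:79759854-79760103, Cox8b on the minus strand at chr7:140900447-140900696, and Cox8a on the minus strand at chr19:7217617-7217866.
Cox6a1: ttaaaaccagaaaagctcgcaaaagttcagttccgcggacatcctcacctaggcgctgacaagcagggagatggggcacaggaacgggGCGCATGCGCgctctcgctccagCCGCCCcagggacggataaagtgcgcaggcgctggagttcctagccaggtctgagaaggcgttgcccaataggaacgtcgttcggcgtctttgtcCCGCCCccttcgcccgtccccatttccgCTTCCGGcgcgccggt
Cox7a1: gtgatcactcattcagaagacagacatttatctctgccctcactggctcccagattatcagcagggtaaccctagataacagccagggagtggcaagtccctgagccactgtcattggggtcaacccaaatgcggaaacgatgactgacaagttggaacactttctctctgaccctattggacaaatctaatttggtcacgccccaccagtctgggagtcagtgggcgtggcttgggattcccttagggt
Cox7a2: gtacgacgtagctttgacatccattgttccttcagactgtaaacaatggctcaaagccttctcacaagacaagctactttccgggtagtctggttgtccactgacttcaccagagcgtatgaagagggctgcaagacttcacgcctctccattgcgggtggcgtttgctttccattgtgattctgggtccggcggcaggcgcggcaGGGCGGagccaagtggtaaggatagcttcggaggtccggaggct
Cox8b: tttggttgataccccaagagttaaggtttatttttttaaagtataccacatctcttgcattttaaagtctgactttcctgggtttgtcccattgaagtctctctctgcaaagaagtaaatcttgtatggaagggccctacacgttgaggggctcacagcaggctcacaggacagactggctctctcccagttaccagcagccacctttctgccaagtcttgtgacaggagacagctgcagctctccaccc
Cox8a: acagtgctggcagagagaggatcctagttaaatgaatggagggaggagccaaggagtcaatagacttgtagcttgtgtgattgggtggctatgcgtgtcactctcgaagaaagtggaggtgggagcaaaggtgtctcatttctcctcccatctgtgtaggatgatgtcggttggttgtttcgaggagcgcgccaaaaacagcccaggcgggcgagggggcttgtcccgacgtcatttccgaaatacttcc

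The ubiquitous forms had more CpG pairs in these 250 bases than the heart forms shown. Cox6a1 held 26 CpG, Cox7a2 14 and Cox8a 11, whereas Cox7a1 held 4 and Cox8b held 1. The median was 12 CpG over the 26 members with an entry and 6 over all 32851 promoters in the table. Cox6a1 carried the NRF1 letters on both strands at overlapping positions, the GABP letters and 2 matches to the Sp1 letters, and Cox7a2 carried 1 match to the Sp1 letters. No complete match was found in the printed bases of Cox7a1, Cox8b or Cox8a. A match is a description of letters, not a bound site.

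In all, 6 sets of motif letters were searched on both strands over the whole window, which adds the 50 bases after the start. The NRF1 letters occurred in 4 of 26 member promoters (15.4%; Cox6a1, Cycs, Uqcr11 and Uqcrc1) and in 1.75% of all promoters. Those of GABP occurred in 10 members (38.5%; Cox6a1, Cox6b1, Cox8a, Sdhaf1, Sdhaf2, Sdhaf3, Sdhb, Sdhd, Uqcr11 and Uqcrh), against 8.86% of all. No complete match of Cox8a to the GABP letters lies within the printed bases. Sp1 letters were present in 13 members (50%) and in 35.7% of all promoters, ERR letters (AAGGTCA) in 1 member, Sdhd, and in 4.72% of all. YY1 letters (AAGATGGCG) and MEF2 letters (TAAAAATA) were found in 0 of 26 members, and in 1.403% and 2.718% of all promoters. The Sp1 letters were the most frequent of the 6 in members and in all promoters alike.

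Most structural subunits of complexes II, III and IV were among the more abundant nuclear messages of the heart. The complex II assembly factors and the forms known from other tissues lay lower. Of the 13654 nuclear protein-coding genes with at least 20 reads, whose median level was 6.10 TPM, the 50 highest held 10 of these genes, the 100 highest held 17 and the 300 highest held 24. All 37 genes together summed to 17148 TPM in animal 1 and 20225 TPM in animal 2, a mean of 18687 ± 2176 TPM (SD, n = 2), and their median level was 442 TPM. For scale, 37 nuclear genes chosen by symbols of complex I subunits had a median of 309 TPM and the 18 ATP synthase genes a median of 573 TPM. The complex I set includes Ndufa4 and Ndufa4l2 and leaves out Ndufab1.

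**Figure D1:**
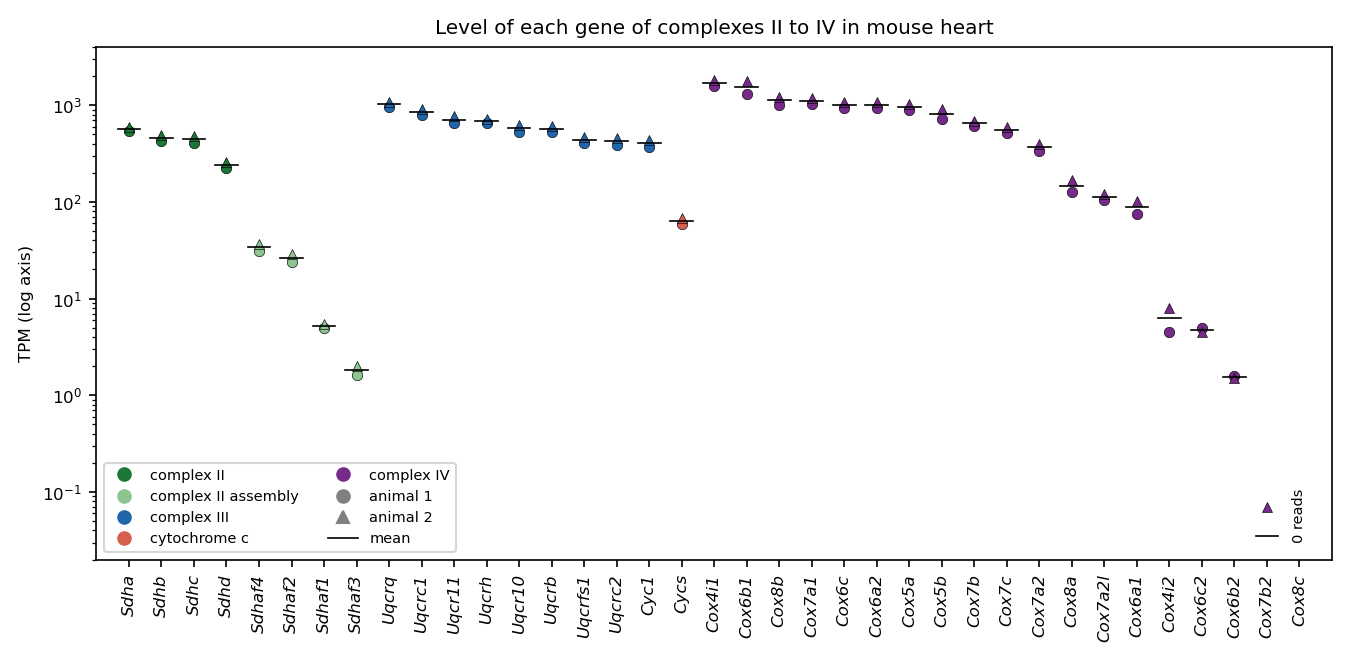
TPM (log axis) of each of the 37 genes in animal 1 (circle) and animal 2 (triangle), with the mean as a bar, coloured by complex. Structural subunits of complexes II and III lie between 241 and 1019 TPM, whereas cytochrome c, the assembly factors and the tissue-restricted forms of complex IV lie lower. In the second quantification, which is not drawn, cytochrome c averaged 722 TPM.

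Among complex II genes, the catalytic subunits were higher than the membrane anchors. Sdha (ENSMUSG00000021577.14), the flavoprotein that oxidises succinate, stood at 535 TPM in animal 1 and 599 TPM in animal 2. Sdhb (ENSMUSG00000009863.14), which holds the iron-sulfur clusters, stood at 423 and 495 TPM. The anchor subunits, which bind ubiquinone in the inner membrane, followed with 407 and 478 TPM for Sdhc (ENSMUSG00000058076.12) and 222 and 261 TPM for Sdhd (ENSMUSG00000000171.5). The order of these 4 genes was the same in both animals. Sdhb at 459 ± 50.8 TPM and Sdhc at 442 ± 50.3 TPM (SD, n = 2) lay close together. These SDs include the shift of TPM scale that both genes share, and do not measure the spread of a difference within an animal. In the second quantification Sdhb exceeded Sdha, with 639 against 528 TPM. The complex II sum was 1710 ± 174 TPM (SD, n = 2).

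The 4 assembly factors of complex II summed to 67.5 ± 8.33 TPM (SD, n = 2), far below the subunits they serve. Sdhaf4, which binds the flavinylated Sdha subunit, was at 31.3 and 37.1 TPM, and Sdhaf2, needed for attachment of its flavin, at 23.7 and 28.8 TPM. Sdhaf1 and Sdhaf3, which act on the iron-sulfur subunit, were at 4.98 and 5.49 TPM and at 1.62 and 2.00 TPM. The 4 levels spanned 18.9-fold from lowest to highest, against 2.35-fold for the 4 subunits. Of the exon bases of Sdhaf1, 69.6% are shared with a gene on the opposite strand, E130208F15Rik, which was given 15 and 13 reads against 442 and 438 for Sdhaf1.

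Complex III subunits fell in a narrow range, 403 to 1019 TPM, and summed to 5677 ± 559 TPM (SD, n = 2). The subunits that carry electrons were at its lower end: Cyc1, the haem protein cytochrome c1, had 371 and 434 TPM, and Uqcrfs1, the Rieske iron-sulfur protein, had 409 and 471 TPM. Of the core proteins, Uqcrc1 reached 793 and 906 TPM and Uqcrc2 reached 386 and 461 TPM. Uqcrc1 thus exceeded its partner 2.00-fold on average, with 849.5 against 423.7 TPM. The excess was smaller in the second quantification, with 1193 against 691 TPM.

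The 5 small subunits of complex III ranged from 570 to 1019 TPM. Uqcrq, at 960.4 and 1078 TPM, led the complex in both animals. Uqcr11 followed with 651 and 767 TPM, and Uqcrh, the hinge protein that contacts cytochrome c1, with 653 and 725 TPM. These levels differed by less than their SDs of 81.9 and 50.8 TPM, and their order was not the same in both animals. Uqcr10, at 532 and 617 TPM, and Uqcrb, at 527 and 613 TPM, lay close together, with Uqcr10 the higher in both animals. Their SDs of 60.3 and 60.8 TPM include the shift of TPM scale that both genes share. Genes of complex III also kept a close range in the second quantification, with 506 to 1354 TPM, where Cyc1 moved from the lowest place to 809 TPM.

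Cytochrome c had a low level in the gene table, and its TPM differed between the quantifications more than that of any other member with at least 100 reads. Cycs (ENSMUSG00000063694.5; mm10 chr6:50562563-50566538, minus strand), the somatic form of the carrier, stood at 59.0 and 67.5 TPM with 6312 and 6526 reads. Its TPM in the second quantification averaged 722 TPM, 11.4-fold that of the gene table, with 12560 and 13092 reads, 2.00-fold those of the gene table. The split of reads with near-identical genes and the transcript assigned to Cycs both differed between the quantifications.

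Cycs has 9 annotated copies with at least 90% identity over at least 90% of its coding sequence. In the gene table these copies held 12170 reads in animal 1 and 12739 in animal 2, which is 66.0% of the reads of gene and copies together. Most were on Gm10053, annotated as a protein-coding gene at chr19:24875686-24876631 whose matching stretch is 100% identical to the coding sequence of Cycs, with 10823 and 11560 reads. A pseudogene on chromosome 5, Gm10108, held 1347 and 1174 reads at 99.4% identity. Gm10053 and Gm10108 were picked out after their values were seen. In the second quantification the copies held 6098 and 6575 reads, 33.1% of those of gene and copies. Gene and copies together held 18482 and 19265 reads in the gene table.

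Cycs also differed in its leading transcript. The gene-level tables gave 94.47% and 95.04% of its TPM to Cycs-202, a protein-coding transcript of 3123 bases, whereas the second quantification gave 91.1% and 91.3% to Cycs-201, a retained-intron transcript of 607 bases. Adding the TPM of the copies brought the cytochrome c level in the gene table to 603 TPM. Whether the RNA came from Cycs or from a copy cannot be told apart where the sequences are identical. The Cycs level is therefore uncertain in its reads, and also in the transcript length they were divided by. The testis form, Cyct, held 1 and 6 reads.

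**Figure D2:**
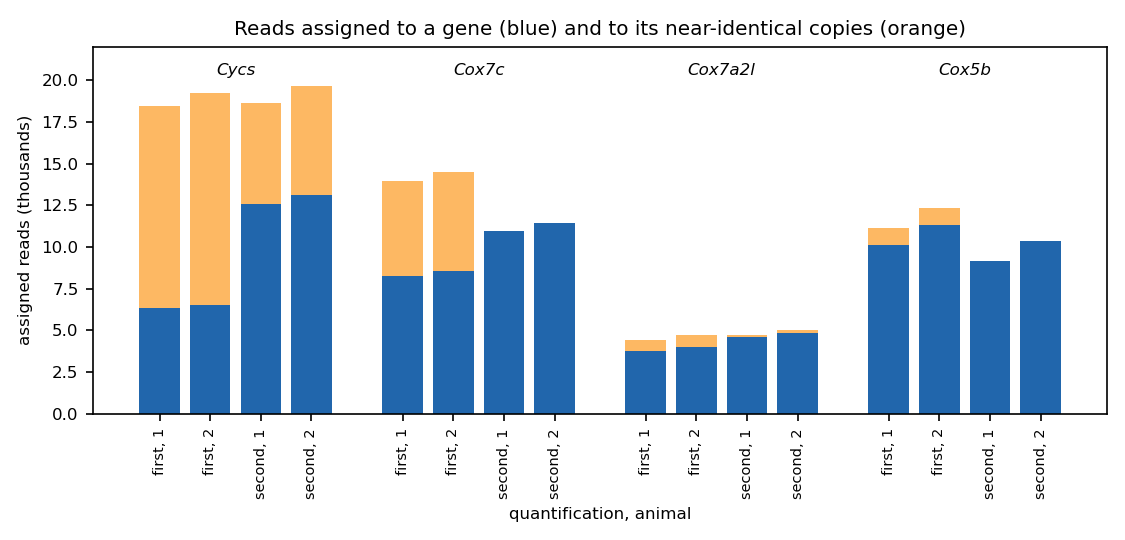
Assigned reads, in units of 1000, given to Cycs, Cox7c, Cox7a2l and Cox5b (blue) and to their near-identical copies (orange) in each quantification and animal. Copies hold most Cycs reads in the first quantification, and for Cox7c the second quantification leaves 0 reads on the copies.

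Complex IV had the highest sum, 11169 ± 1429 TPM (SD, n = 2), and spanned the widest range, from Cox4i1 at 1688 TPM to Cox8c at 0. When the leading form of each of the 10 nuclear-encoded subunits was taken, levels lay between 557 and 1688 TPM. This range of 3.03-fold, with a median of 999 TPM, starts at Cox7c, whose near-identical copies also hold reads. Adding the TPM of these copies brought Cox7c to 2124 TPM, a sum in which the copies' reads are divided by the copies' own lengths. The copy Gm12338, with 4659 and 4857 reads, had 1350 and 1566 TPM, whereas Cox7c, with 8268 and 8557 reads, had 516 and 597 TPM. By reads, Cox7c and its copies held 13942 and 14497, below the 36145 and 37975 of Cox4i1. In the second quantification the 10 forms lay between 935 and 2056 TPM. Without copies added, Cox4i1 (ENSMUSG00000031818.12), the ubiquitous form of the regulatory subunit 4, led with 1567 and 1809 TPM. Next in the gene table came Cox6b1 (ENSMUSG00000036751.7), which sits on the side facing cytochrome c, at 1321 and 1786 TPM.

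The Cox6b1 difference in TPM between animals was not in the scaled reads. Both the length correction and the shift of TPM scale shared by all genes enter it. Cox5a, whose assigned length was 649 bases in each animal, rose from 882 to 1033 TPM. Cox6b1 had 15654 and 16488 reads, and a ratio of scaled reads of 0.999 (95% interval 0.977 to 1.02). The mean transcript length assigned to it was 418 bases in animal 1 and 376 bases in animal 2. A short transcript, Cox6b1-204, took 43.9% of its TPM in animal 1 and 51.5% in animal 2, whereas Cox6b1-201 had 89.5% and 95.6% in the second quantification, where the gene averaged 935 TPM and was the lowest of the 10 leading forms.

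Of the 4 subunits with a single form, Cox6c stood at 925 and 1073 TPM, Cox5a at 882 and 1033 TPM, Cox5b at 712 and 904 TPM, and Cox7c at 516 and 597 TPM. Cox5a and Cox5b are peripheral subunits near the catalytic core, and Cox6c and Cox7c are single-span membrane subunits. In the second quantification Cox6c averaged 1924 TPM, Cox5a 1265 TPM and Cox5b 1054 TPM. The Cox7c level is uncertain, since its copies held 40.8% of the reads of gene and copies, chiefly Gm12338 on chromosome 11 with 4659 and 4857 reads. In the second quantification these copies held 0 reads and Cox7c averaged 1469.7 TPM, 2.64-fold its gene-table value and above Cox5a and Cox5b. Copies held a smaller share for Cox5b, 8.57%, and for Cox7a2l, 15.4%. Cox6c2, the processed pseudogene with 96.9% identity to Cox6c, had 25 and 20 reads, an assignment spread of up to 20.8% of them, and 0 reads in the second quantification.

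In subunit 6A the heart form exceeded the ubiquitous form by the widest margin. Cox6a2 (ENSMUSG00000030785.8; chr7:128205435-128206387) stood at 928 TPM in animal 1 and at 1068 TPM in animal 2, while Cox6a1 (ENSMUSG00000041697.8) at 75.8 and 102 TPM. The heart form thus made up 92.4% and 91.3% of the pair's TPM, a 12.2-fold and 10.5-fold excess over the ubiquitous one, and 91.9% ± 0.834 on average (SD, n = 2). Its share of the pair's reads was 93.8% (95% Clopper-Pearson interval 93.4 to 94.1) in animal 1 and 92.8% (92.4 to 93.1) in animal 2. The second quantification gave 89.99% and 88.08% by TPM. Subunit 6A is known to take part in the regulation of the enzyme by nucleotides.

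Subunit 8 showed the next widest margin. Cox8b (ENSMUSG00000025488.9; chr7:140898945-140900446) was at 1016 and 1221 TPM and Cox8a (ENSMUSG00000035885.5) at 126 and 169 TPM. Cox8b had 88.9% and 87.9% of the pair's TPM, 8.05-fold and 7.24-fold its partner, with 88.4% ± 0.769 (SD, n = 2) on average. By reads, with no length correction, its share was 82.32% (81.63 to 83.00) and 80.7% (80.0 to 81.4). The second quantification gave 89.5% and 88.7%.

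The ubiquitous form kept the largest share in subunit 7A. Cox7a1 (ENSMUSG00000074218.3; chr7:30184144-30186078) stood at 1025 and 1192 TPM and Cox7a2 (ENSMUSG00000032330.7) at 338 and 401 TPM. Cox7a1 accordingly made up 75.2% and 74.9% of TPM, 3.03-fold and 2.98-fold Cox7a2, and 75.0% ± 0.231 (SD, n = 2) on average. This share depended on the quantification more than those of 6A and 8, with 65.4% and 64.9% in the second one and 63.2% and 62.4% by reads. In that quantification Cox7a2 averaged 832 TPM against 369.5 TPM in the gene table, and 54.3% and 51.5% of it was on the processed transcript Cox7a2-203 of 477 bases.

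The heart form was the higher in all 3 pairs, in both animals, in both quantifications, and with or without correction for length. With 2 animals an exact paired permutation test cannot give a p below 0.5, so the heart form's excess within a pair carries no test. The order of the heart form's share, subunit 6A before 8 before 7A, held in both animals by TPM and by reads, whereas in the second quantification Cox8b and Cox6a2 changed places in animal 2, with 88.7% and 88.1%. Sequence shared by the partners was short. Coding identity was 65.3% for 6A, 64.4% for 7A and 56.4% for 8, and the longest stretch shared by the transcripts compared was 12, 12 and 10 bases. In the gene table the 3 heart forms lay at 998 to 1119 TPM and their ubiquitous partners at 88.9 to 369.5 TPM. The order of Cox8b and Cox7a1 was not the same in both animals. In the second quantification the heart forms were further apart, with 961 TPM for Cox6a2, 1554 TPM for Cox7a1 and 1914 TPM for Cox8b, whose level moved 1.71-fold.

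**Figure D3:**
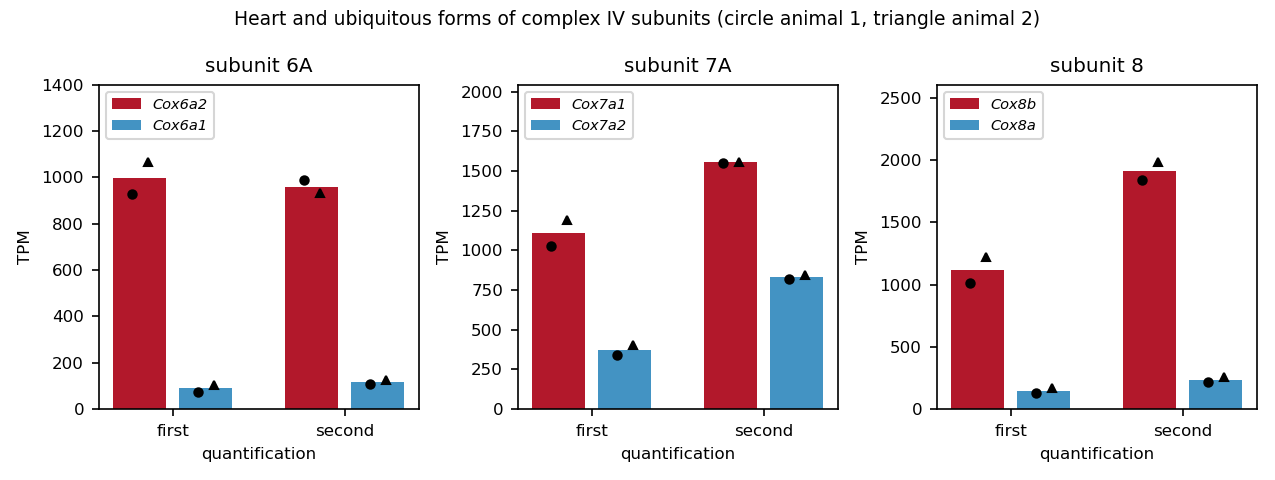
TPM (linear axis from 0) of the heart form (red) and ubiquitous form (blue) of subunits 6A, 7A and 8 in both quantifications, with bars for the mean, circles for animal 1 and triangles for animal 2. The red bar is the taller in all 6 comparisons, and the blue bar is tallest relative to it in subunit 7A.

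Forms known from other tissues were a small part of their pairs. Cox4i2, the form of subunit 4 known from lung and from pericytes, held 106 and 166 reads, 4.54 and 7.92 TPM, which was 0.289% and 0.436% of the TPM of the Cox4 pair. Its mean of 6.23 TPM lay close to the median of nuclear protein-coding genes. Cox6b2, the testis form of subunit 6B, held 23 and 21 reads, 0.119% and 0.0850% of its pair. Cox7b2, restricted to testis, held 0 and 1 read, and its ubiquitous partner Cox7b stood at 609.9 and 688 TPM. Cox8c, the testis form of subunit 8, was not detected. A count of 0 allows up to 0.142% and 0.118% of the reads of Cox8c and Cox8a together, for counting error only. Of 6 markers of testis germ cells, 5 (Ldhc, Pgk2, Prm1, Prm2 and Tnp1) were at 0 in both libraries. Both hearts came from females, so the absence of testis cells was given by the design.

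Cox7a2l, related to Cox7a2 and known as a factor that joins complexes III and IV into supercomplexes, was at 104 and 122 TPM. It made up 23.4% of the summed TPM of itself and Cox7a2 in each animal, against 36.2% of their reads on average and 18.5% of their TPM in the second quantification. Its own level was 113 TPM on average, 188 TPM in the second quantification and 195.5 TPM with its copy added. C57BL/6 mice are known to carry a shortened allele of Cox7a2l, and these values do not distinguish it from the CAST allele.

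Between the animals, no member differed by 2-fold or more. The test was a two-sided exact binomial test of each gene's reads given library sizes scaled by TMM, with Benjamini-Hochberg adjustment over 16133 genes with at least 20 reads at 0.05. It compares 2 libraries and sees counting error alone. At least 2-fold differences were called for 0 of 35 members and for 1.39% of all genes tested. With no fold minimum, 4 members were higher in animal 2, where 6.6% of all genes were, and 3 were higher in animal 1, where 4.75% of all genes were. At an unadjusted p below 0.05, as with the other scalings and the second quantification, the count of members past 2-fold was 0. Members were deeply sequenced, and 29 of them had at least 2000 reads. Of those 29, 3 were higher in animal 2 and 3 in animal 1, beside 596 and 332 of the 4442 nuclear protein-coding genes of that depth. The members' log2 ratios, animal 2 over animal 1, had a median of -0.01, and those of the 29 ranged from -0.10 to 0.20.

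The split between the directions depended on the scaling. With library totals in place of TMM, 24 members were higher in animal 2 and 0 in animal 1, as were 2994 and 377 of all genes tested, and the median log2 ratio of all genes moved to 0.08. Ratios between partners of a pair come from within each library and are free of this scaling.

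Both ubiquitous partners that were low relative to the heart form, Cox6a1 and Cox8a, were among the 4 members higher in animal 2. Cox6a1 had 1330 and 1610 reads, a ratio of 1.15 (95% interval 1.07 to 1.23), with an adjusted p of 0.00323 in the exact binomial test. Cox8a had 2113 and 2539 reads, a ratio of 1.14 (1.08 to 1.21), with an adjusted p of 2.02e-04 in the same exact test. The third ubiquitous partner, Cox7a2, had a ratio of 1.03 (0.993 to 1.06) and missed the threshold, with an adjusted exact p of 0.395. Under the second quantification the Cox6a1 call was lost, at a ratio of 1.11 and an adjusted exact p of 0.0863.

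With TMM scaling the heart forms did not pass the threshold, with ratios of 0.981 (0.962 to 1.00) for Cox6a2, 0.991 (0.966 to 1.02) for Cox7a1 and 1.02 (0.997 to 1.05) for Cox8b. In the second quantification Cox6a2 passed it, with a ratio of 0.914 and an adjusted exact p of 2.45e-10. With library totals all 3 passed it as higher in animal 2. The ratios of Cox6a2 and Cox7a1 turned above 1, to 1.04 and 1.05, with adjusted exact p of 0.00290 and 0.00418, and that of Cox8b was 1.08 with an adjusted exact p of 3.17e-07.

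The balance within pairs was compared directly by the ratio of the heart form to its partner, animal 2 over animal 1. For 6A this ratio of ratios was 0.854 (exact 95% interval 0.793 to 0.921), and for 8 it was 0.899 (0.844 to 0.959). For 7A it was 0.965 (0.925 to 1.01), an interval that includes 1. The second quantification gave 0.825 (0.758 to 0.897), 0.913 (0.847 to 0.984) and 0.970 (0.925 to 1.02). The heart form was thus lower relative to its partner in animal 2 for 6A and 8, beyond counting error, by amounts small beside the excess itself, 7.24-fold to 12.2-fold by TPM.

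Cox4i2 was also higher in animal 2, with a ratio of 1.485 (1.16 to 1.91) and an adjusted exact p of 0.0181. Relative to Cox4i1 its ratio was 1.49 (1.17 to 1.90), and 1.39 (1.07 to 1.81) in the second quantification, where Cox4i2 alone missed the threshold at an adjusted exact p of 0.128. Cox5b had the smallest of the 4 differences, 10137 and 11302 reads, a ratio of 1.06 (1.03 to 1.09) and an adjusted exact p of 9.05e-04.

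The 3 members higher in animal 1 differed by under 5%. Their ratios were 0.976 for Uqcrc1, 0.966 for Cox7b and 0.955 for Uqcrh, with adjusted exact p of 0.00939, 0.0328 and 0.0248, and all 3 turned above 1 with library totals. The calls of Uqcrc1 and Uqcrh were lost in the second quantification, at adjusted exact p of 0.123 and 0.0926. No gene of complex II or its assembly passed the threshold with TMM scaling, where the count at an unadjusted p below 0.05 was also 0. With library totals all 4 complex II subunits were higher in animal 2. Ratios of the 4 subunits lay between 0.9900 for Sdha and 0.9999 for Sdhd.

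**Figure D4:**
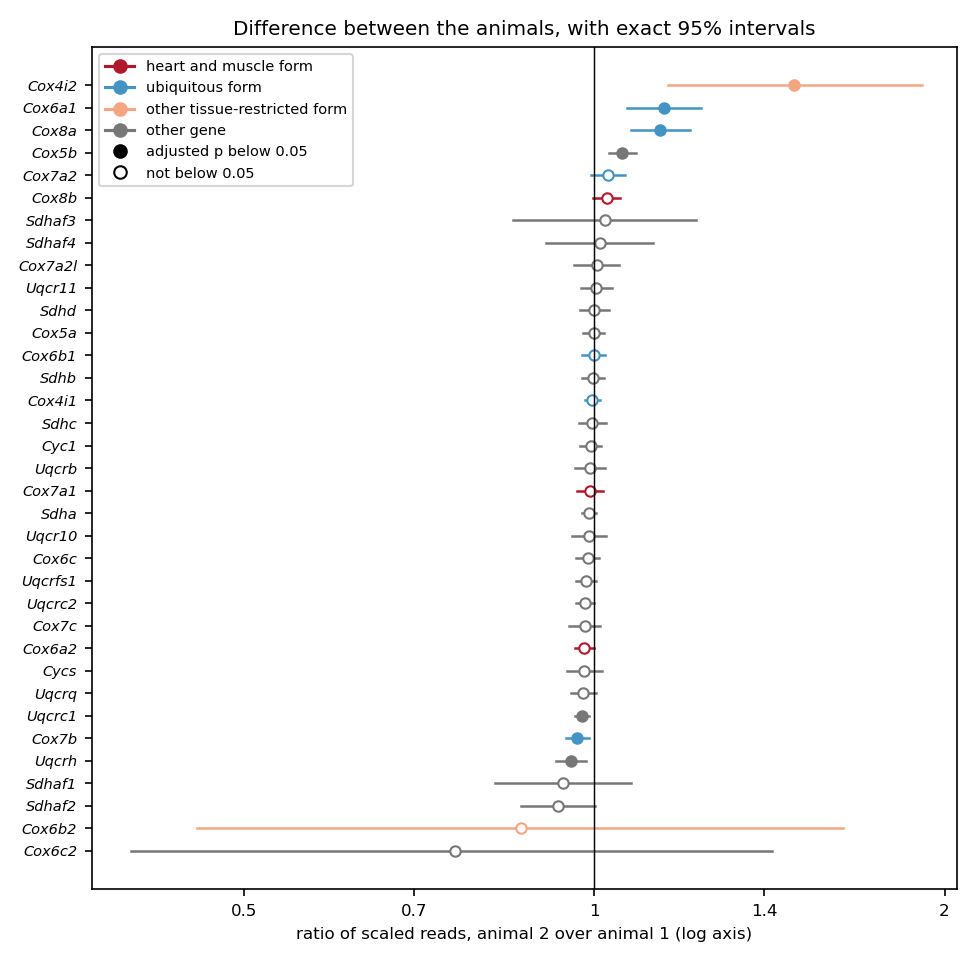
Ratio of scaled reads, animal 2 over animal 1 (log axis), of the 35 members with at least 20 reads, with exact 95% intervals, filled where the adjusted p was below 0.05. Cox4i2, Cox6a1, Cox8a and Cox5b lie above 1 and Uqcrc1, Cox7b and Uqcrh below it, and the intervals are widest for Cox6c2, Cox6b2 and Cox4i2, which had the fewest reads.

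Most markers of mural cells, endothelium, fibroblasts, macrophages and adipocytes had ratios above 1. The 4 members called higher in animal 2, Cox4i2, Cox6a1, Cox8a and Cox5b, have ratios above 1 by the call itself. Ratios above 1 were found for 10 of 35 members, the heart form Cox8b among them, and for 7950 of 16133 genes tested. In the same comparison 6.6% of all genes were called higher in animal 2. For pericytes and smooth muscle, the 7 markers came to 258 TPM in animal 1 and 345 TPM in animal 2 together, with 6 of 7 higher in animal 2 in the exact test and a median log2 ratio of 0.25. Endothelial markers summed to 181 and 229 TPM, with 4 of 6 higher and a median of 0.14. Fibroblast markers summed to 246 and 328 TPM, with 4 of 6 higher and a median of 0.20, and macrophage markers to 58.3 and 79.3 TPM, with 3 of 6 higher and a median of 0.21. These last 3 lists were added after the values were seen.

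The 5 white adipocyte markers held 735 and 1679 reads, with 3 of the 4 tested higher and a median log2 ratio of 0.97. The 5 brown adipocyte markers held 5650 and 7702 reads, with 3 of 4 higher and a median of 0.48. Most of these brown adipocyte reads, 4772 and 6628, were on Ppargc1a alone, so their sum mainly follows that gene. Dio2 and Ucp1, also higher, held far fewer reads, and Cidea did not pass the threshold. Among the cardiomyocyte markers 1 was higher in animal 2 and 4 in animal 1, with a median of -0.03, which turned to 0.05 with library totals, where 4 were higher in animal 2 and 0 in animal 1. Skeletal muscle had 6 of its 9 markers tested, with 0 higher in animal 2, 1 higher in animal 1 (Myh1, with 22 and 1 reads) and a median of -0.08. Lung epithelium markers held 4 and 6 reads in sum. The part of these lists in the differences of Cox4i2, Cox6a1, Cox8a and Cox5b was not tested.

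Assembly factors outside the symbol rule lay below every subunit of complexes II and III and below the leading form of each complex IV subunit. Of the 6 complex III factors, Uqcc2 had 123 ± 9.62 TPM and Uqcc1 104 ± 19.1 TPM (SD, n = 2), both needed for making cytochrome b. The others, Uqcc3, Ttc19, Lyrm7 and Bcs1l, lay between 12.4 and 19.8 TPM. Bcs1l, the translocase that places the Rieske protein, was higher in animal 1 with a ratio of 0.857 (0.768 to 0.956) and an adjusted exact p of 0.0456, which rose to 0.215 with library totals. The other 5 did not pass. The 24 complex IV factors found were led by the copper chaperone Cox17 with 119 ± 15.5 TPM and by Cox14 with 86.0 ± 11.8 TPM, followed by Cox20, Coa5, Smim20 and Coa3 at 35.4 to 43.2 TPM. The lowest was Pet117 at 3.61 TPM. None of the 24 passed in either direction in the exact test, in the same comparison in which 6.6% and 4.75% of all genes did. At an unadjusted p below 0.05 the count was 1, and their median log2 ratio was -0.03.

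Ndufa4, first assigned to complex I and now regarded as a subunit of complex IV, reached 1144 ± 95.04 TPM (SD, n = 2), within the range of the leading complex IV forms, and was higher in animal 1 with a ratio of 0.960 (0.938 to 0.982) and an adjusted exact p of 0.00504, but turned above 1 with library totals, to 1.01. Its relative Ndufa4l2 was at 10.5 TPM, and the supercomplex factors Higd1a and Higd2a at 77.4 and 66.9 TPM. These 3 did not pass, whereas with library totals all 3 were higher in animal 2. Hccs, which attaches haem to cytochrome c, was at 26.4 TPM.

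Messages of the mitochondrial genome for the same complexes were above all nuclear partners except in 1 case. mt-Co1 averaged 32890 ± 2846 TPM, mt-Co3 16505 ± 959 TPM and mt-Cytb 13736 ± 1061 TPM (SD, n = 2). mt-Co2 stood at only 801 and 540.3 TPM, and at 4206 TPM in the second quantification. All 4 were higher in animal 1 by the exact test with TMM scaling, whereas with library totals mt-Co1 and mt-Cytb turned above 1, to 1.02 and 1.005. The difference was largest for mt-Co2, with 17385 and 10543 reads and a log2 ratio of -0.80.

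Which transcript carried the level was the same in both animals for each of the 33 members with at least 100 reads. In 21 of them the leading transcript held at least 90% of the gene's TPM, and in 29 it was protein-coding. For Cox5b, Cox7b, Uqcrh and Sdhaf2 it was not. The leading transcripts were the processed transcript Cox5b-205 with 68.8% and 69.2%, the retained-intron transcripts Cox7b-203 with 51.6% and 49.9% and Uqcrh-205 with 62.6% and 60.0%, and Sdhaf2-206, annotated for nonsense-mediated decay, with 51.1% and 39.5%.

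Transcript assignment changed more between quantifications than between animals. The second quantification named the same leading transcript for 23 of the 33. It moved Cox6a1 from Cox6a1-201 (97.6% and 98.6%) to the retained-intron transcript Cox6a1-202 (93.5% and 92.2%), and Uqcrh to the processed transcript Uqcrh-204 (99.7% and 98.0%). For Cox6a2 and Cox8b only 1 transcript is annotated, so no such choice arises.

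Levels in the second quantification were higher by TPM and lower by reads for most members. Over the 33 members the second value divided by the first had a median of 1.33 in TPM, above 1 in 28, and of 0.895 in reads, below 1 in 22. Nuclear protein-coding genes at 1 TPM or more had medians of 1.196 and 1.070. Reads were lowest relative to the first table in short genes. The 13 members under 600 bases had a median of 0.782 in reads, and the 20 longer ones 0.9602. Nuclear protein-coding genes under 600 bases had a median of 0.847. Effective length, by which TPM is computed, differs between the tables, as given with the processing. The log2 TPM of the 33 members in the quantifications correlated with Pearson's r = 0.96 across genes, which share libraries and are not independent replicates.

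**Figure D5:**
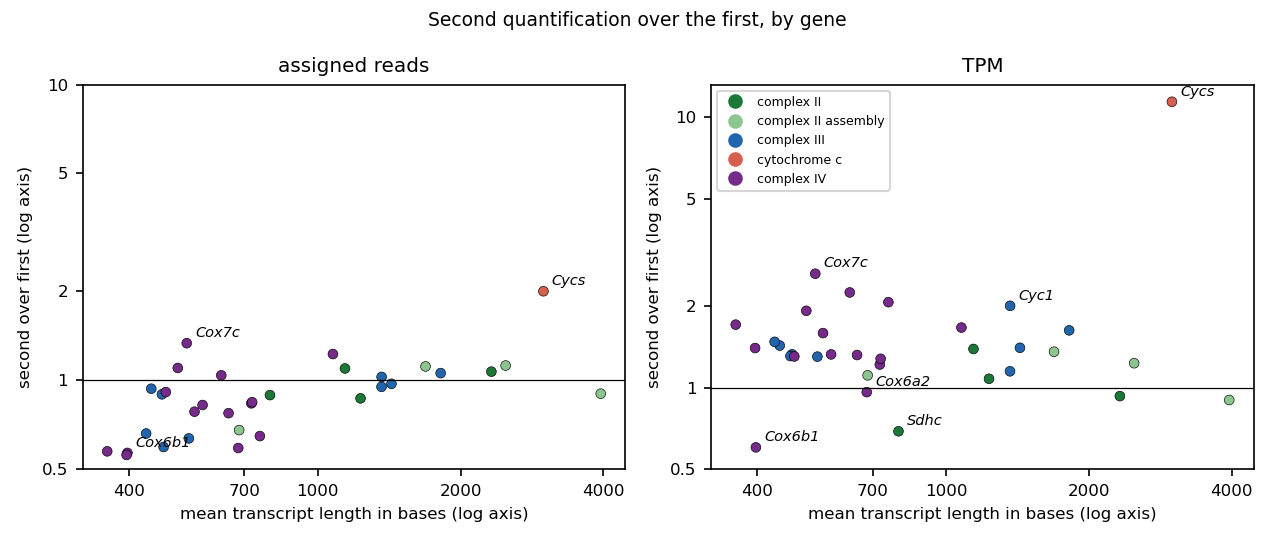
Second quantification divided by the first for assigned reads (left) and TPM (right) against mean transcript length in bases (log axes), 1 point per member with at least 100 reads. Points lie mostly below 1 for reads and above 1 for TPM, with Cycs highest in both, at 2.00 and 11.4.

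Exons of 9 members overlap a gene on the opposite strand, among them Cox6a2, which shares 70 bases (10.3% of its exon bases) with Itgad, and Cox4i1, which shares 154 bases with Emc8. Itgad was given 5 and 4 reads and Emc8 726 and 778, against 20005 and 20693 for Cox6a2 and 36145 and 37975 for Cox4i1. The strand setting of the counting was not given in the sources used here. The largest count on an overlapping partner was that of Vps13b, with 1922 and 2046 reads beside 14023 and 14598 for Cox6c.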

How the data were processed

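Total RNA-seq libraries of 2 hearts were analysed from the authors' deposited tables, 1 gene table and 2 transcript tables per library. Per the file headers, the gene table and 1 transcript table follow the RSEM layout: their expected counts are estimated, unnormalised reads, and the authors computed TPM over all entries with spike-ins. Length exceeds effective length by 99 bases there. The other transcript table has the kallisto layout (estimated counts and TPM per the file headers); it was summed per gene here as the second quantification, and length exceeds effective length by 326 to 327 bases for transcripts of at least 2000 bases. The assembly is mm10 with the M21 annotation per the deposited notes. Aligner, tool versions, filters and strand setting were not given in the sources used here.

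Names and coordinates came from GENCODE M21. Entries without a gene name (a number) held 4 and 2 reads (9.5e-06% and 4.76e-06%) and were left out of library sizes and of tests. All other entries that are not annotated genes held 0.596% and 0.619% of reads and were left out likewise. Expected counts were rounded, and genes with at least 20 reads kept. TMM sizes came from edgeR 4.0.16 (R 4.3.3), size factors for an alternative from DESeq2 1.42.0, and exact tests from SciPy 1.17.1. Log2 ratios used a prior count of 0.5. On data simulated with counting error alone over 16133 genes, 200 of 200 genes changed 3-fold were recovered. The changed genes were drawn from those with at least 200 reads, and smaller changes were not simulated. Of the unchanged genes 1 was called 2-fold, and 6 were called with no fold minimum. Exact intervals are 95%, and intervals and the limit of 3 counts for a count of 0 (0.0717 and 0.0718 CPM) cover counting error only, since reads carry no molecular identifiers. The assignment spread is the posterior SD of a count in the deposited table. Coding identity came from global alignment (Biopython 1.88), and copies from BLAST 2.17.0 (at least 90% identity over at least 90% of the coding sequence). RefSeq promoters matched 26 of 37 members by symbol.

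Members and lists were chosen with earlier results of these data known. Named genes are all members, up to 6 by mean TPM from each pathway list, and the leading transcript of members. Copies and overlapping genes were named after their values were seen. Fam36a of the complex IV assembly list was not matched. Alternatives were a second quantification, posterior mean TPM, TPM over nuclear protein-coding genes, reads without length correction, other library scaling, no read minimum, and leaving out an animal.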

Additional observations from a re-analysis of the deposited data

How the results depend on the processing

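The heart form remained the higher in the Cox6a, Cox7a and Cox8 pairs under all alternatives run, with shares of 89.0% and 93.3% (Cox6a2), 65.1% and 62.8% (Cox7a1) in the second quantification and by reads, and 81.5% (Cox8b) by reads. Leaving out an animal gave shares of 91.3% to 92.4%, 74.9% to 75.2% and 87.9% to 88.9%. Sums depended on the scale of TPM. Over nuclear protein-coding genes alone they were 4101 TPM for complex II, 13616 TPM for complex III, 151.7 TPM for cytochrome c and 26730.2 TPM for complex IV. The second quantification gave 8061 TPM for complex III, 722 TPM for cytochrome c and 15859.6 TPM for complex IV. Adding the near-identical copies, an alternative chosen after seeing the data, gave 603 TPM for cytochrome c and 12918 TPM for complex IV. In these sums the reads of copies are divided by the copies' own lengths. With 1 animal left out, sums were 1587 to 1833, 5282 to 6072, 59.0 to 67.5 and 10158 to 12179 TPM. Members apart beyond counting error numbered 7 of 35, beside 11.3% of all genes tested. With library totals they numbered 24 of 35 beside 20.9%, and in the second quantification 4 of 34 beside 11.1%. With DESeq2 factors they numbered 7 beside 11.4%, and without a read minimum 7 beside 6.76%. Over genes with an assignment spread below 10% only, added after seeing the data, they numbered 7 beside 10.6%. Members past 2-fold numbered 0 in each. With library totals the ratio reversed for Uqcrc1 (1.03), Cox7b (1.02), Uqcrh (1.01), Cox6a2 (1.04) and Cox7a1 (1.05), since this scaling raises all ratios of animal 2. The cause of the other changes was not tested. No paired analysis between groups was possible because there is 1 group, with no second group that shares its replicate numbers. Leaving out an animal leaves no comparison of animals. Depth limits Cox4i2, Cox6b2, Cox6c2, Cox7b2 and Cox8c.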
